A study of Mus musculus with 20 samples.

Results

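The genes described here are 39 genes of the lysosome: 18 lumenal hydrolases and their cofactors, 8 membrane proteins, 11 subunits of the proton pump and 2 transcription factors of lysosomal genes. They were chosen by name, and their probes were found through the transcript accession that the array design gives each probe. All 39 were measured, among 18739 genes tested, and 37 of them were well above background on all 20 arrays. Ctsf and Ctsk were the dim members: Ctsf was above background on 18 arrays and Ctsk on 11.

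The RNA came from a murine B16 line carrying Bcr-Abl. B16 is a melanoma line, while the strain given in the labels is mouse C3H eOuJ. The cells were grown in DMEM with 10% serum and transfected with plasmids for p65/RelA, an NF-kB subunit with a transactivation domain. The void group (3 arrays, labelled Blanck and taken here as the void plasmid) received no p65. The WT group (3 arrays) received wild-type p65, and the D361E group (3 arrays) a form that the submitters call non-cleavable. The N-fragment group (3 arrays) received residues 1 to 361, the C-fragment group (3 arrays) residues 362 to 549, and the N+C group (5 arrays) both pieces. All groups therefore share the line, its Bcr-Abl and the act of transfection, and every group also has its own endogenous p65. Neither the promoter of the plasmids, the time after transfection, the share of transfected cells nor the origin of the replicates is given in the sources used here, so each p-value reflects the scatter among these arrays alone, and that scatter may be technical.

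Lysosomes are acidic organelles in which hydrolases break down proteins, glycans, glycogen and lipids. The hydrolases work at low pH, which the V-type ATPase maintains by pumping protons, with a membrane-bound V0 sector that forms the proton path and a cytosolic V1 sector that hydrolyses ATP. Many lysosomal genes carry the sequence TCACGTGA (the CLEAR element) near their start, where the MiT family factors TFEB, TFE3 and MITF bind. In melanocytes MITF also governs pigment genes, and the melanosome is an organelle related to the lysosome.

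The promoters that hold this element are shown so that its bearers can be followed through the results. Of the 39 genes 33 had an entry in the RefSeq promoter table (build GRCm38.p6), and the 250 bases before each annotated start were searched on both strands. The palindrome CACGTG (an E-box) was present in 12 of the 33 (36.4%), against 6.86% of the 27025 genes with an entry. TCACGTGA, which contains CACGTG, was present in 5 (15.2%) against 0.907% of all genes. The related TCATGTG was in 3 (9.09%, against 3.72%), and the NF-kB consensus in 3 (Neu1, Psap and Scarb2; 9.09%, against 4.46%). A match is a description of letters, not evidence of binding. The 5 bearers of TCACGTGA are printed 5′ to 3′ on the gene's strand, with the element in capitals.
Atp6v1a (chr16:44139359-44139416, minus strand): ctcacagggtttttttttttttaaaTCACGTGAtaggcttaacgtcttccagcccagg
Ctsa (chr2:164833735-164833772, plus strand): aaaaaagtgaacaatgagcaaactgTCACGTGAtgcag
Ctsd (chr7:142387894-142387951, minus strand): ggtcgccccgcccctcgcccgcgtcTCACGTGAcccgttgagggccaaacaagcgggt
Gla (chrX:134601168-134601225, minus strand): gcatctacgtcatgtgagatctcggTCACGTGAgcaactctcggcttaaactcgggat
Mcoln1 (chr8:3500448-3500505, plus strand): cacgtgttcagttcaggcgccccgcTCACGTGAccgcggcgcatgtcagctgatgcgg

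The printed element begins 132 bases before the start of Atp6v1a, 13 before Ctsa, 99 before Ctsd, 195 before Gla and 46 before Mcoln1. Gla holds another copy further upstream. Of the members that hold only the shorter CACGTG, Ctsl was higher with the N-fragment, and Atp6v0b, Ctsf and Lamp1 were not called with it. The 3 that were lower with the N-fragment, Gaa, Glb1 and Naglu, are printed with CACGTG in capitals.
Gaa (chr11:119267798-119267853, plus strand): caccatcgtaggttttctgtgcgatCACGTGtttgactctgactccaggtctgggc
Glb1 (chr9:114401005-114401060, plus strand): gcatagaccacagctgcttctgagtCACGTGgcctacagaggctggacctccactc
Naglu (chr11:101069996-101070051, plus strand): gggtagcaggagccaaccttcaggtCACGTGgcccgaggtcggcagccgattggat

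Levels below are log2 signals relative to the 75th percentile of the same array, and they are compared between arrays for 1 gene, never between genes. Differences are log2 differences of group means with their standard error (± SE) from a limma model over all 20 arrays. A gene is called higher or lower at a Benjamini-Hochberg adjusted p under 0.05 over the 18739 genes. In RNA from a whole culture, fewer cells of a kind and less RNA per cell cannot be told apart. Between 51.1 and 57.9% of spots were above background per array. The targeted gene Rela was above background everywhere. It was higher with the N-fragment (0.36 ± 0.07, limma adjusted p = 0.00089) and was not called for D361E (0.08), WT (0.07), N+C (0.18, adjusted p = 0.0512) or the C-fragment (0.08). The position of the Rela probe against residue 361 is not known here, so its signal does not check the fragment plasmids. For the full-length plasmids no Rela rise was called, so the arrays do not show their expression either.

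All 7 melanocyte markers (Tyr, Tyrp1, Dct, Pmel, Mlana, Mitf and Sox10) were above background on all 20 arrays, and their summed signal lay between 1090 and 1430 times the arrays' 75th percentile. Of 12 macrophage markers 3 were above background on every array and 6 on none (Adgre1, Aif1, C1qa, Cd163, Mpeg1 and Mrc1), with summed signals of 1.69 to 5.13. Of 8 haematopoietic markers 1 was above background on every array, while Ptprc and Spi1 were above it on none. Of 7 fibroblast markers 1 was above background on every array and Dcn, Lum and Pdgfrb on none. The summed fibroblast signal moved with the constructs, from 1.28 to 1.64 in void arrays to 2.84 to 3.48 with the N-fragment, 0.659 to 0.746 with the C-fragment and 0.195 to 0.68 with N+C. Its part in the results was not tested. The 20 arrays lie on 5 slides of 4. The array of N-fragment replicate 1 lay 0.42 and 0.46 from the others of its group (root mean square log2 difference over genes), which lay 0.19 from each other. It shares its slide with void replicate 3 (0.28 and 0.51 from the other void arrays, which lay 0.33 apart), D361E replicate 2 (0.29 and 0.49, against 0.27) and N+C replicate 5. The N+C arrays fall in a set of 3 (arrays 16 to 18) and a set of 2 (arrays 19 and 20), which are shown apart.

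The N-fragment and N+C groups had 17 and 15 lysosomal genes called against void, and both had 17 or both 19 with the slide as a fixed or a random block. Of the 39 genes 15 were lower with it and 2 higher, 17 in all. These are 43.6% of the members, against 31.1% of all genes tested, with 38.5% lower against 17.9% and 5.13% higher against 13.2%. The lower genes were Gusb, Tpp1, Glb1, Atp6v1a, Neu1, Naglu, Ctsd, Ctsz, Gpnmb, Atp6v0d1, Mcoln1, Atp6v0c, Ctsa, Gaa and Cd63, and the higher ones Ctsh and Ctsl. The median member differed from void by -0.16, and the median of all genes by -0.06. The split was 2 higher and 14 lower after quantile normalization or after normexp correction, and 3 and 10 with both. The lower shares were 35.9, 35.9 and 25.6%, against 15.6, 20.8 and 13.4% of all genes. The higher shares were 5.13, 5.13 and 7.69%, against 15.2, 11.9 and 14.1%. The split was 13 and 4 without any scaling, where the median of all genes itself moved to 0.28 and that of the members to 0.17. There 33.3% of the members were higher against 33.7% of all genes, and 10.3% lower against 5.99%.

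The plot of the share of genes called shows the members beside all genes in each comparison.

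**Figure D1:**
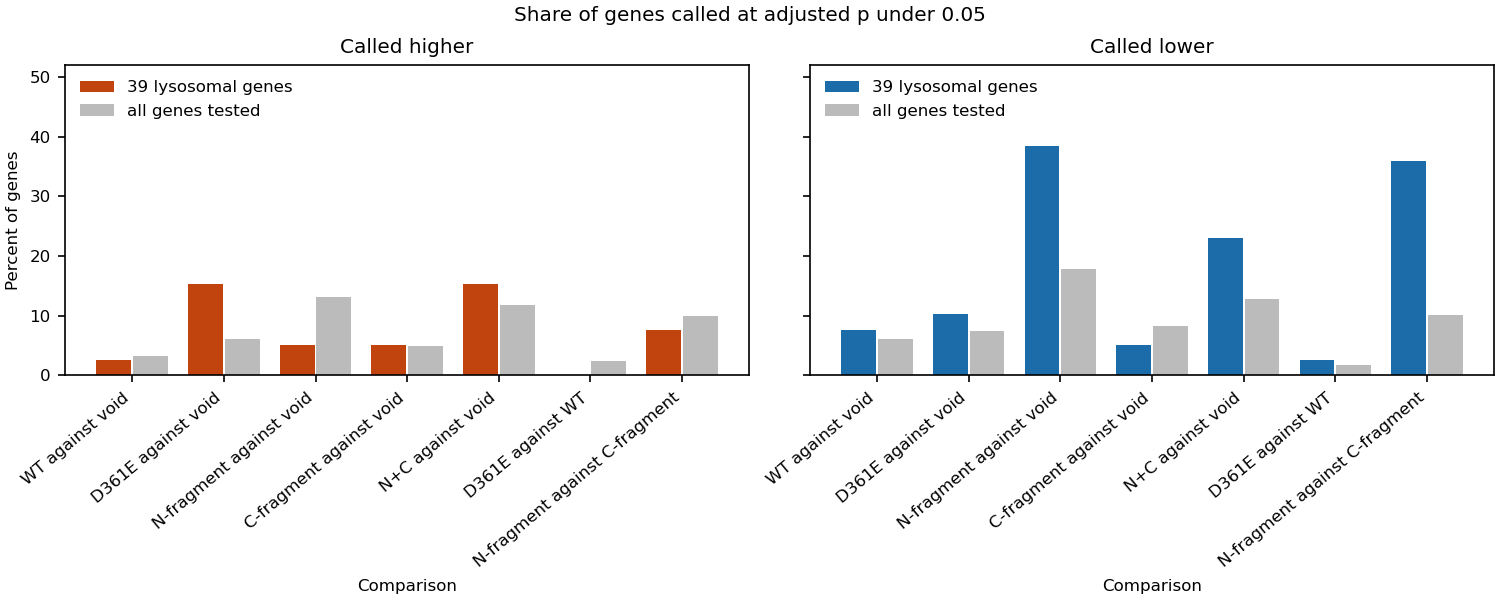
Share of genes (vertical axis, percent) called higher (left) or lower (right) at an adjusted p under 0.05 in each of the 7 comparisons, for the 39 lysosomal genes (coloured bars) and all 18739 genes tested (grey bars). With the N-fragment 38.5% of the members were lower against 17.9% of all genes. Without scaling between arrays, where the median of all genes moved to 0.28, 13 members were higher and 4 lower (33.3 and 10.3%, against 33.7 and 5.99% of all genes).

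Set against the C-fragment, the N-fragment again had 17 called members, 14 lower and 3 higher (Ctsh, Ctsk and Scarb2). That is 43.6% against 20.2% of all genes, with 35.9% lower against 10.2% and 7.69% higher against 10%. The median member was -0.15 and the median gene -0.04. Without C-fragment replicate 3 the count was 11 (28.2%, against 14.9% of all genes). The split was 5 higher and 8 lower without scaling (12.8 and 20.5%, against 11.7 and 4.95% of all genes).

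The C-fragment alone called 4 members against void, 2 higher (Atp6v0a1 and Gaa) and 2 lower (Ctsk and Gusb). These are 10.3% of the members against 13.1% of all genes, with 5.13% in each direction against 4.88% higher and 8.24% lower among all genes. The median member was 0.03 and the median gene -0.02. With normexp and quantile normalization together 1 was higher and 2 lower (2.56 and 5.13%, against 5.2 and 6.4% of all genes). Without scaling 10 were higher and 1 lower (25.6 and 2.56%, against 15.3 and 2.74%).

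With both fragments 15 members were called against void, 9 lower (Ctsf, Ctsk, Ctsl, Tpp1, Neu1, Gusb, Atp6v0d1, Naglu and Cd63) and 6 higher (Cd68, Ctsh, Hexa, Atp6v0a1, Ctsd and Gaa). This is 38.5% of the members, against 24.6% of all genes, with 23.1% lower against 12.8% and 15.4% higher against 11.8%. The median member was -0.04 and the median gene -0.03. The count was 5 (3 higher, 2 lower) when only the void and N+C arrays entered the fit, 12.8% against 10.8% of all genes. Without scaling 9 were higher and 3 lower (23.1 and 7.69%, against 24.9 and 4.74% of all genes).

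The full-length forms of p65 gave 4 and 10 calls. With WT 4 members were called, Gaa higher and Cd68, Gusb and Gpnmb lower. They are 10.3% against 9.39% of all genes, with 2.56% higher against 3.22% and 7.69% lower against 6.16%, a share near the background. It was 20.5% against 8.64% after quantile normalization and 17.9% against 7.91% with normexp and quantile together. The WT split depended on the scaling, with 6 higher and 2 lower after quantile normalization, 5 and 5 after normexp correction, 5 and 2 with both, and 27 and 1 without scaling. After normexp correction 12.8% of the members were higher against 4.05% of all genes, and 12.8% lower against 15.3%. Without scaling 69.2% were higher against 39.6% of all genes, and 2.56% lower against 1.35%. With D361E 10 members were called, 6 higher (Mcoln1, Atp6v0a1, Gaa, Neu1, Lamp2 and Atp6v1d) and 4 lower (Cd68, Ctsb, Gusb and Gpnmb). These are 25.6% against 13.5% of all genes, with 15.4% higher against 6.04% and 10.3% lower against 7.44%. The D361E split was 12 higher and 2 lower after quantile normalization, 8 and 2 with normexp and quantile together, and 14 and 1 without scaling. The higher shares there were 30.8, 20.5 and 35.9%, against 7.63, 5.96 and 9.88% of all genes. The lower shares were 5.13, 5.13 and 2.56%, against 6.3, 5.18 and 2.96%. After normexp correction alone 12.8% of the members were higher and 12.8% lower, against 4.71 and 6.76% of all genes. With only the void and D361E arrays in the fit 2.56% were higher and 7.69% lower, against 3.12 and 4.62%. The median member was 0.05 with WT and 0.13 with D361E, where the median gene was -0.03 and -0.04. The D361E count fell to 5 without void replicate 2 (12.8%, against 9.87% of all genes). It was 6 (15.4%) without D361E replicate 1, without D361E replicate 2 or with no filter on dim probes, against 10.3, 12 and 6.03% of all genes.

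The direct comparison of D361E with WT called 1 member, Ctsk, lower (2.56% of the members against 4.21% of all genes, 2.42% higher and 1.79% lower). The median member was 0.06 and the median gene 0.01. That 10 members were called with D361E and 4 with WT is therefore not a difference shown for 6 genes, since none of Mcoln1, Atp6v0a1, Neu1, Lamp2, Atp6v1d and Ctsb was called between D361E and WT.

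**Figure D2:**
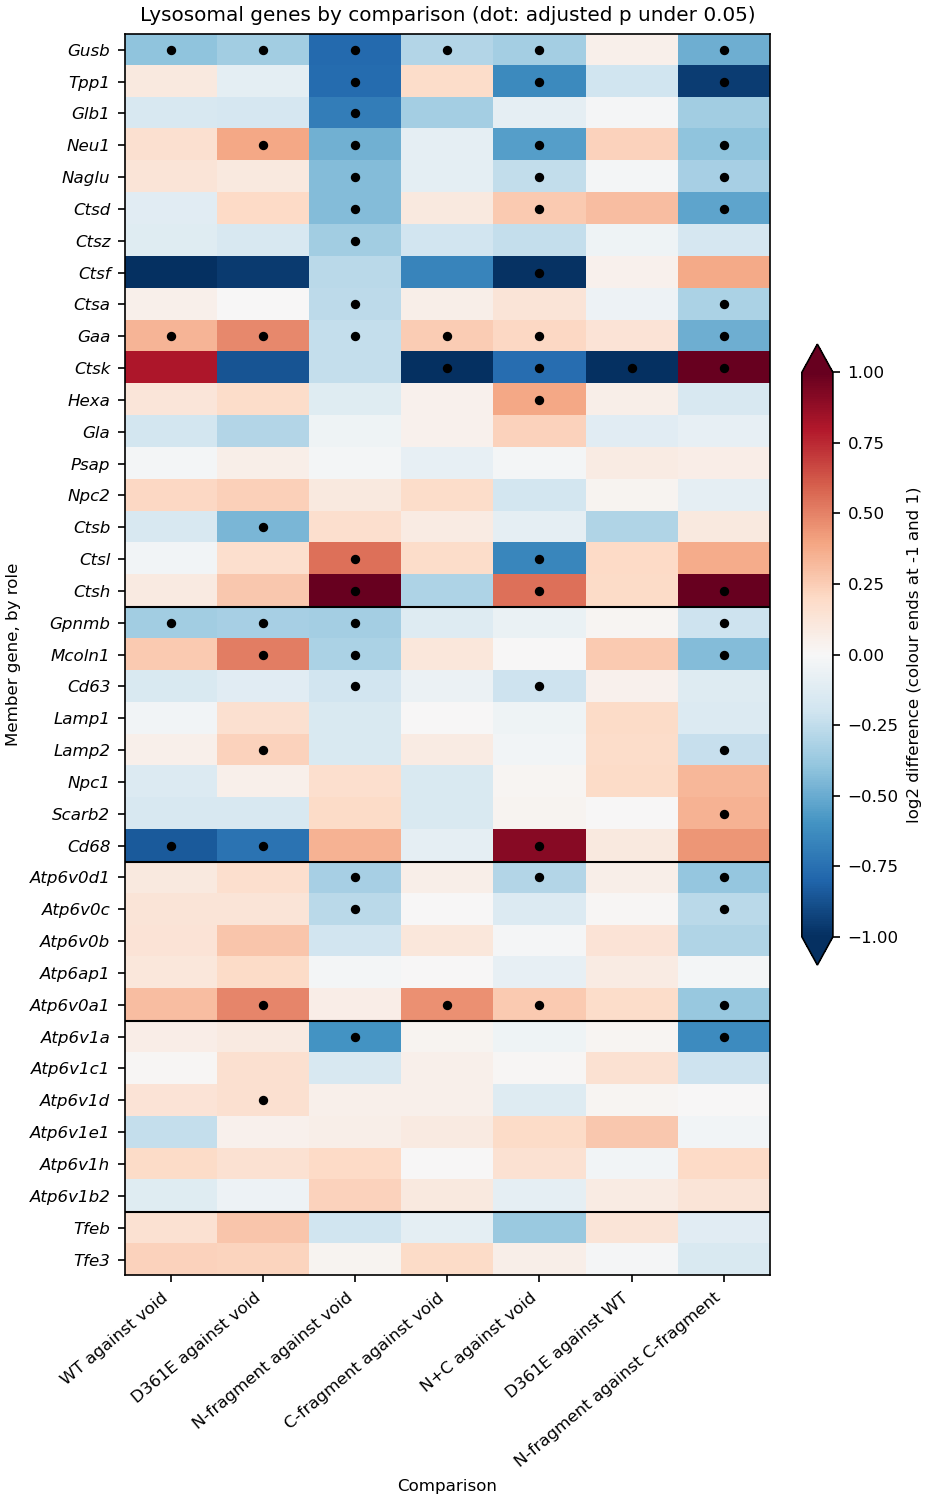
Log2 difference (colour, ending at -1 and 1) of each of the 39 lysosomal genes (rows, grouped by role: hydrolases and cofactors, membrane proteins, V0 sector, V1 sector, transcription factors) in the 7 comparisons (columns), with a dot where the adjusted p was under 0.05. The N-fragment column holds 15 lower and 2 higher dots. Without scaling between arrays, where the median of all genes moved to 0.28, its split was 4 lower and 13 higher (10.3 and 33.3%, against 5.99 and 33.7% of all genes).

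Of the lumenal hydrolases and cofactors 9 of 18 were lower and 2 higher with the N-fragment, where 17.9% of all genes were lower and 13.2% higher, and their median difference was -0.25. Gusb, the beta-glucuronidase that trims glycosaminoglycans, was lower in every comparison with void. Its levels were 4.23, 4.38 and 4.40 on void arrays and 3.60, 3.52 and 3.54 on N-fragment arrays. WT arrays read 3.95, 3.91 and 3.97, D361E arrays 3.88, 4.08 and 4.00, C-fragment arrays 4.03, 4.08 and 4.02, and N+C arrays 3.92, 3.84, 3.86, 4.17 and 4.18. No array of a p65 group reached the lowest void array, and the N-fragment arrays lay below all others. Gusb was 1.72-fold lower with the N-fragment (-0.78 ± 0.09, limma adjusted p = 6.68e-06). It was -0.40 ± 0.09 with WT (adjusted p = 0.0121), -0.35 ± 0.09 with D361E (adjusted p = 0.0162), -0.29 ± 0.09 with the C-fragment (adjusted p = 0.0424) and -0.34 ± 0.08 with N+C (adjusted p = 0.00534). With the slide as a fixed block the C-fragment value was -0.19 ± 0.07 (adjusted p = 0.0936), and as a random block -0.24 ± 0.08 (adjusted p = 0.045). Without scaling the WT value was 0.00.

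Tpp1, the tripeptidyl peptidase that removes tripeptides from the ends of proteins, was low with both groups that had the N-fragment. It read 0.91, 0.72 and 0.62 on void arrays, -0.19, 0.05 and 0.10 with the N-fragment, and -0.06, 0.12, 0.05, 0.29 and 0.17 with N+C. None of these 8 arrays overlapped the void arrays, whereas C-fragment arrays (0.85, 0.94 and 1.01) and WT arrays (0.90, 0.86 and 0.81) did. The difference was -0.77 ± 0.10 with the N-fragment (limma adjusted p = 3.75e-05), 1.70-fold, and -0.64 ± 0.09 with N+C (adjusted p = 0.000125). Between the fragments it was the largest fall, -0.95 ± 0.10 (adjusted p = 6.2e-06).

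Glb1, the beta-galactosidase, was lower with the N-fragment and not called elsewhere. Void arrays read 1.68, 1.77 and 1.95 and N-fragment arrays 1.23, 1.10 and 1.01, without overlap, a difference of -0.69 ± 0.13 (limma adjusted p = 0.000654). On the 1 slide that holds both groups the difference was -0.73. Neu1, the sialidase, and Ctsa, the protective protein that holds sialidase and beta-galactosidase in a complex, were also lower with the N-fragment. Neu1 read 3.59, 3.63 and 3.75 on void arrays, 3.23, 3.17 and 3.12 with the N-fragment, and 3.20, 3.09, 3.07, 2.83 and 3.32 with N+C. All 8 arrays with the N-fragment, alone or with the C-fragment, were below all void arrays. The difference was -0.48 ± 0.11 with the N-fragment (adjusted p = 0.00321) and -0.55 ± 0.10 with N+C (adjusted p = 0.000645). Without scaling the N-fragment call of Neu1 was lost (-0.15).

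D361E moved Neu1 the other way, to 3.89, 4.27 and 4.00 (0.39 ± 0.11, limma adjusted p = 0.0251). That call was lost in 7 of 18 alternatives. Ctsa differed by -0.26 ± 0.09 with the N-fragment (adjusted p = 0.0412), and its call was lost in 9 alternatives and its sign turned without scaling. Its other probe, for another transcript, showed -0.71.

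Naglu, which removes N-acetylglucosamine from heparan sulphate, was lower with the N-fragment (-0.43 ± 0.09, limma adjusted p = 0.00194) and with N+C (-0.25 ± 0.08, adjusted p = 0.0342). Its N+C call was lost in 10 of 22 alternatives, and its N-fragment call without scaling (-0.09). Ctsd, the main aspartic protease of the lysosome, went both ways. It read 6.08, 6.39 and 6.44 on void arrays, 5.98, 5.86 and 5.80 with the N-fragment and 6.58, 6.51, 6.53, 6.59 and 6.62 with N+C. The N-fragment arrays were all below the void arrays and the N+C arrays all above them. The differences were -0.43 ± 0.09 (adjusted p = 0.00169) and 0.26 ± 0.08 (adjusted p = 0.0263), and the second was lost in 7 of 22 alternatives. The first was lost without scaling and when only the groups compared entered the fit. Both Ctsd probes had the same signs (-0.31 and 0.21 for the other probe). Ctsz, a carboxypeptidase, differed by -0.35 ± 0.11 with the N-fragment, but its lowest void array (5.60) lay below the highest N-fragment array (5.63).

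Gaa, the acid alpha-glucosidase that breaks down glycogen, was called in all 5 comparisons with void. Void arrays read 5.36, 5.37 and 5.41. WT arrays read 5.73, 5.71 and 5.72, D361E arrays 5.80, 5.93 and 5.86, C-fragment arrays 5.66, 5.57 and 5.66, and N+C arrays 5.68, 5.65, 5.62, 5.49 and 5.52. N-fragment arrays read 5.20, 5.09 and 5.14, so they alone lay below void, and the other 4 groups lay above it, all without overlap. The differences were 0.34 ± 0.06 with WT (limma adjusted p = 0.00179), 0.48 ± 0.06 with D361E (adjusted p = 3.77e-05), 0.25 ± 0.06 with the C-fragment (adjusted p = 0.0104) and 0.21 ± 0.05 with N+C (adjusted p = 0.00721). With the N-fragment the difference was -0.24 ± 0.06 (adjusted p = 0.00534), which became 0.10 without scaling, and the other Gaa probe showed -0.12. Between the fragments it was -0.49 ± 0.06 (adjusted p = 1.59e-05).

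The cysteine cathepsins did not move together. Ctsh, which acts mainly as an aminopeptidase, was the largest rise with the N-fragment. It read 0.27, 0.27 and 0.42 on void arrays, 1.5, 1.27 and 1.19 with the N-fragment, and 0.77, 0.70, 0.74, 1.01 and 1.12 with N+C. C-fragment arrays, at 0.07, 0.05 and -0.07, were below void, though that difference was not called (-0.31). Ctsh was 2.00-fold higher with the N-fragment (1.00 ± 0.11, limma adjusted p = 3.3e-06) and 1.46-fold higher with N+C (0.55 ± 0.10, adjusted p = 0.000605). Between the fragments it differed by 1.31 ± 0.11 (adjusted p = 2.51e-07).

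Ctsl, a broad endopeptidase, was higher with the N-fragment and lower with both fragments. Void arrays read 3.87, 3.71 and 3.73, N-fragment arrays 4.38, 4.32 and 4.27, and N+C arrays 2.85, 2.86, 2.93, 3.46 and 3.49. The 3 groups did not overlap, and the first 3 N+C arrays were lower than the last 2. The differences from void were 0.55 ± 0.14 (limma adjusted p = 0.00828) and -0.65 ± 0.13 (adjusted p = 0.00162). N+C was not set against the N-fragment in a test here. When only void and N+C arrays entered the fit, the N+C call was lost (adjusted p = 0.0671).

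Ctsb, an abundant endopeptidase, was lower with D361E, at 4.74, 4.62 and 4.62 against 5.26, 5.05 and 5.06 on void arrays (-0.46 ± 0.14, limma adjusted p = 0.0388). The call was lost in 13 of 18 alternatives, among them the fixed slide block (adjusted p = 0.0625), and not with the random one (adjusted p = 0.0277). Ctsf, another endopeptidase, read -4.61, -3.98 and -3.92 on void arrays and -4.89, -4.79, -5.19, -5.99 and -4.92 with N+C (-0.99 ± 0.34, adjusted p = 0.0434). That call was lost in 11 of 21 alternatives, and Ctsf was not above background on array 19.

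Ctsk, the collagen-degrading cathepsin of osteoclasts, was near background throughout. It was above background on all void and WT arrays, on 2 of 3 N-fragment, 1 of 3 D361E, 0 of 3 C-fragment and 2 of 5 N+C arrays. The C-fragment group was at least 1.54-fold lower than void, computed against the lowest signal well above background on each of its arrays (means -6.34 and -4.97, limma adjusted p = 0.00452 for the unbounded difference). The N-fragment group was at least 1.30-fold higher than the C-fragment group (adjusted p = 0.00893). D361E arrays read -5.55, -6.10 and -5.85 and WT arrays -4.19, -4.25 and -4.05, a difference of -1.67 ± 0.28 (adjusted p = 0.00194) that rests on 1 D361E array above background. With N+C Ctsk differed from void by -0.76 ± 0.25 (adjusted p = 0.038), the groups overlapped, and the call was lost in 14 of 21 alternatives.

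Hexa, the alpha subunit of beta-hexosaminidase, was higher with N+C, at 5.30, 5.25, 5.26, 5.45 and 5.42 against 4.80, 5.01 and 5.03 on void arrays. The groups did not overlap, and the difference was 0.39 ± 0.06 (limma adjusted p = 0.000334). Gla (alpha-galactosidase), Psap (the precursor of the saposins) and Npc2 (a cholesterol carrier) were called in no comparison. Gla ranged from -0.29 to 0.23 over the comparisons with void, Psap from -0.08 to 0.06 and Npc2 from -0.18 to 0.24. Gla, although it holds TCACGTGA, differed by -0.04 with the N-fragment, while Atp6v1a, Ctsa, Ctsd and Mcoln1 were all lower. Of the 15 genes lower with the N-fragment 7 hold CACGTG, and of the 17 with a promoter entry that were not called 4 do. Of the 2 genes higher with the N-fragment 1 has a promoter entry, Ctsl, and it holds CACGTG. With N+C 3 of the 9 lower genes hold CACGTG and 7 of the 19 not called, and TCACGTGA is in 0 of those 9 and 4 of those 19. Of the 5 genes with an entry that were higher with N+C, 2 hold CACGTG and 1, Ctsd, holds TCACGTGA.

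**Figure D3:**
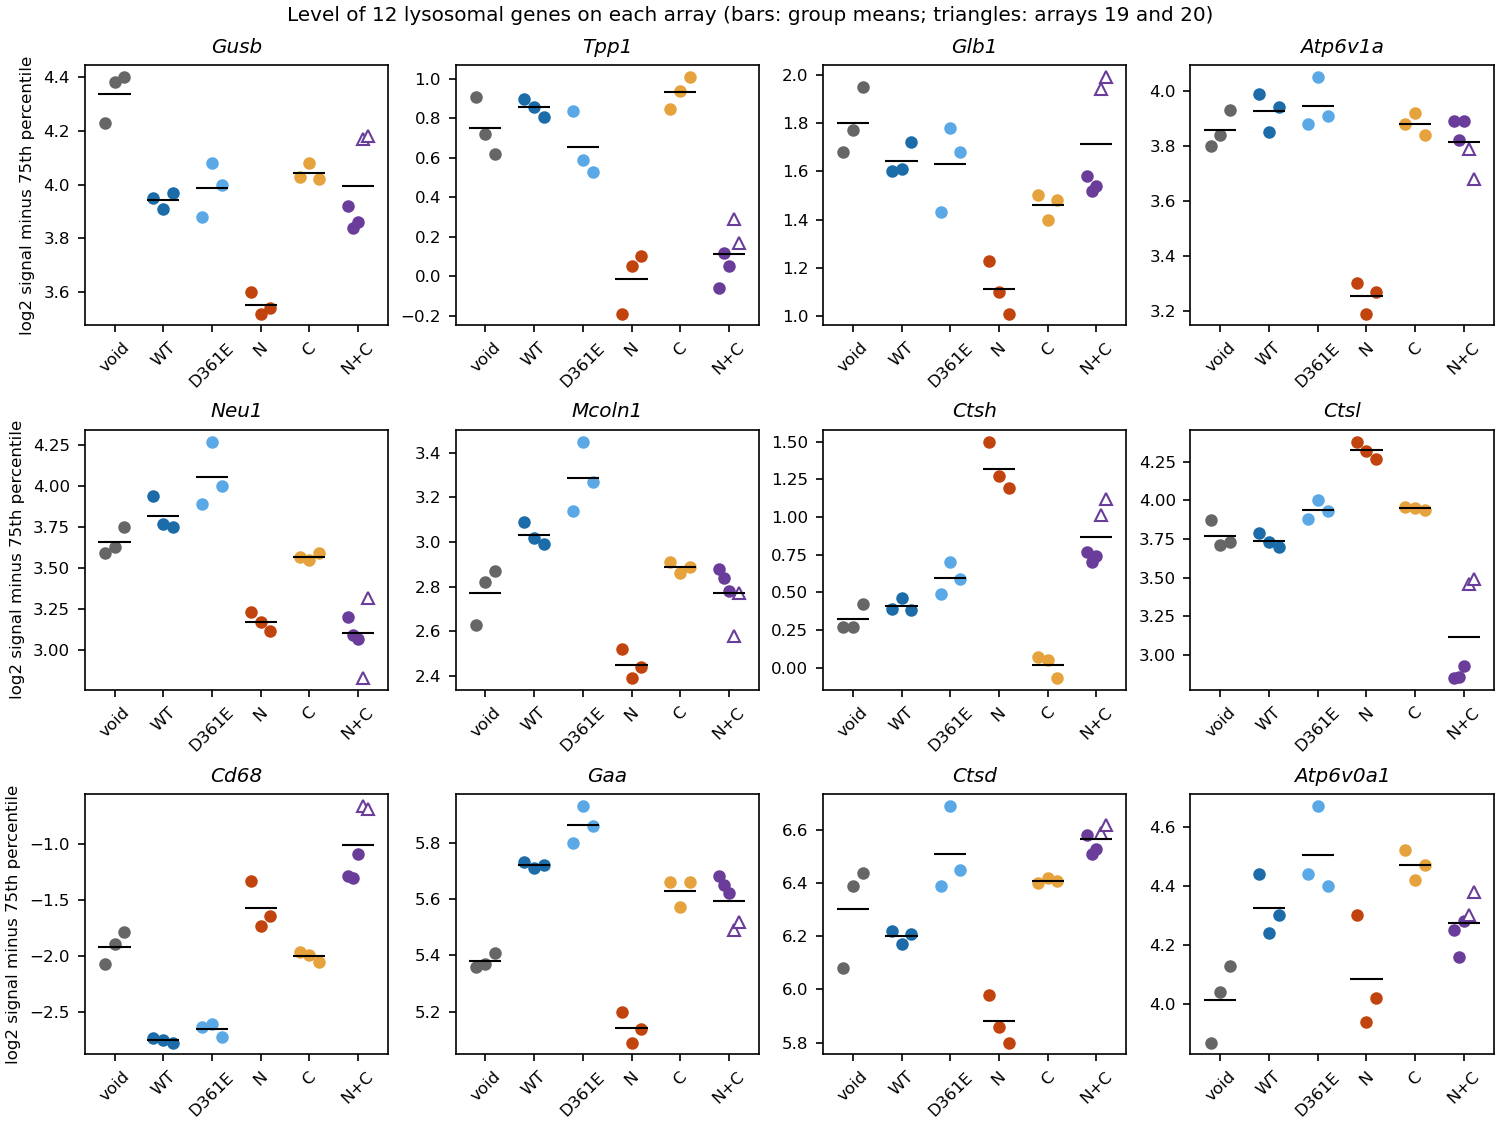
Level of 12 lysosomal genes (panels; vertical axis, log2 signal minus the array's 75th percentile, with a range of its own in each panel) on each array of the 6 groups, with group means as bars and N+C arrays 19 and 20 as open triangles. N-fragment arrays lie lowest for Gusb, Tpp1 on average, Glb1, Atp6v1a and Gaa, and highest for Ctsh and Ctsl; without scaling the Gaa difference from void turned to 0.10.

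Among the 8 membrane proteins the signs were mixed. Cd68, a heavily glycosylated lysosomal membrane protein often used as a macrophage marker, showed the largest changes. It read -2.07, -1.89 and -1.78 on void arrays, -2.73, -2.75 and -2.77 with WT, and -2.63, -2.60 and -2.72 with D361E. C-fragment arrays read -1.96, -1.99 and -2.05, N-fragment arrays -1.33, -1.73 and -1.64, and N+C arrays -1.28, -1.30, -1.09, -0.66 and -0.69. Full-length p65 arrays were all below void, N+C arrays were all above it, and C-fragment arrays lay within its range. Cd68 was 1.79-fold lower with WT (-0.84 ± 0.16, limma adjusted p = 0.00294) and 1.67-fold lower with D361E (-0.74 ± 0.16, adjusted p = 0.00438). It was 1.88-fold higher with N+C (0.91 ± 0.14, adjusted p = 0.000179), and the N-fragment difference of 0.35 was not called. These 3 calls held in all alternatives run. Of the 12 macrophage markers, which do not include Cd68, 3 were above background on every array and 6 on none. The 4 that were measured (Csf1r, Cd14, Itgam and C1qb) gave 0 calls by limma with WT, D361E or N+C. Of all genes 9.39, 13.5 and 24.6% were called there. The summed signal of the 12 was 2.54 to 5.13 on void arrays, 2.47 to 3.19 with WT, 1.87 to 3.17 with D361E and 1.69 to 3.14 with N+C, and its part in the Cd68 differences was not tested.

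Gpnmb, a glycoprotein of melanosomes and lysosomes, was lower with WT, D361E and the N-fragment. It read 7.16, 7.20 and 7.23 on void arrays, 6.70, 6.91 and 6.93 with WT, 6.81, 6.93 and 6.86 with D361E, and 6.88, 6.92 and 6.78 with the N-fragment. No array of these 3 groups reached void. The differences were -0.35, -0.33 and -0.34, each ± 0.07 (limma adjusted p = 0.00382, 0.00357 and 0.00114). The WT and D361E calls were lost after quantile normalization, and without scaling the WT value was 0.05. The N-fragment call was lost with normexp and quantile normalization together. Without scaling the N-fragment and D361E calls were lost too.

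Mcoln1, the calcium channel that also controls lysosomal signalling to TFEB, moved in opposite directions with D361E and the N-fragment. Void arrays read 2.63, 2.82 and 2.87, D361E arrays 3.14, 3.45 and 3.27, and N-fragment arrays 2.52, 2.39 and 2.44. Neither group overlapped void. The differences were 0.51 ± 0.09 (limma adjusted p = 0.000893) and -0.32 ± 0.09 (adjusted p = 0.00979), and the second was 0.01 without scaling. WT arrays, at 3.09, 3.02 and 2.99, also lay above void, but their difference of 0.26 was not called.

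Lamp2, a major glycoprotein of the lysosomal membrane, was higher with D361E (0.23 ± 0.07, limma adjusted p = 0.028), a call lost in 11 of 18 alternatives. Between the fragments it was -0.23 for the probe used and 0.09 for a probe of another transcript. Lamp1, its close relative, was called nowhere and ranged from -0.15 to 0.16 against void. Cd63, a tetraspanin, was lower with the N-fragment (-0.19 ± 0.06) and with N+C (-0.21 ± 0.06). Its N-fragment value was 0.15 without scaling and its N+C value 0.00. Scarb2, the receptor that carries glucocerebrosidase to the lysosome, was higher with the N-fragment than with the C-fragment (0.35 ± 0.08, adjusted p = 0.00312). Its arrays read 0.32, 0.38 and 0.32 against -0.05, 0.02 and -0.01. Npc1, the membrane partner of Npc2 in cholesterol export, was not called and ranged from -0.15 to 0.17 against void.

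In the proton pump 1 V1 subunit changed strongly. Atp6v1a, the catalytic subunit that binds ATP, was lower with the N-fragment. Void arrays read 3.80, 3.84 and 3.93, and N-fragment arrays 3.30, 3.19 and 3.27. WT arrays read 3.99, 3.85 and 3.94, D361E arrays 3.88, 4.05 and 3.91, C-fragment arrays 3.88, 3.92 and 3.84, and N+C arrays 3.89, 3.82, 3.89, 3.79 and 3.68. The N-fragment arrays were the lowest of all 20, apart from every other group. Atp6v1a was 1.52-fold lower than void (-0.60 ± 0.07, limma adjusted p = 4.72e-06) and 1.55-fold lower than with the C-fragment (-0.63 ± 0.07, adjusted p = 4.18e-06). With N+C the difference from void was -0.04. The other Atp6v1a probe gave -0.61 with the N-fragment and -0.10 with N+C.

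The other V1 members did not follow Atp6v1a. With the N-fragment Atp6v1b2, the other nucleotide-binding subunit, was at 0.23, Atp6v1h at 0.20, Atp6v1e1 at 0.06, Atp6v1d at 0.05 and Atp6v1c1 at -0.16, and none of these was called. Atp6v1d, a stalk subunit, was higher with D361E (0.16 ± 0.05, limma adjusted p = 0.0438), a call lost in 9 of 18 alternatives. Against void Atp6v1b2 ranged from -0.12 to 0.23, Atp6v1c1 from -0.16 to 0.16, Atp6v1e1 from -0.24 to 0.19 and Atp6v1h from 0.00 to 0.20.

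In the V0 sector Atp6v0d1, the subunit that couples V0 to V1, was lower with both groups that had the N-fragment. It read 4.09, 4.02 and 4.03 on void arrays, 3.78, 3.68 and 3.69 with the N-fragment, and 3.64, 3.68, 3.80, 3.83 and 3.86 with N+C, with no overlap. The differences were -0.33 ± 0.07 (limma adjusted p = 0.00138; 0.01 without scaling) and -0.29 ± 0.06 (adjusted p = 0.00235). Atp6v0c, a proteolipid of the proton-carrying ring, was lower with the N-fragment (-0.27 ± 0.08, adjusted p = 0.0215), but 9 of 18 alternatives lost the call or, without scaling, turned it to 0.06.

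Atp6v0a1, an isoform of the large V0 subunit, was higher in 3 groups. Void arrays read 3.87, 4.04 and 4.13, D361E arrays 4.44, 4.67 and 4.40, C-fragment arrays 4.52, 4.42 and 4.47, and N+C arrays 4.25, 4.16, 4.28, 4.30 and 4.38. None of the 3 overlapped void. The differences were 0.49 ± 0.10 (limma adjusted p = 0.00344), 0.46 ± 0.10 (adjusted p = 0.00674) and 0.26 ± 0.09 (adjusted p = 0.0441). The N+C call was lost in 12 of 22 alternatives. WT arrays read 4.44, 4.24 and 4.30, also above void, and their difference of 0.31 had an adjusted p of 0.0615, or 0.00401 (0.40 ± 0.07) with the slide as a fixed block and 0.00917 (0.36 ± 0.08) as a random block. Atp6v0b and Atp6ap1, another proteolipid and an accessory subunit, were not called and ranged from -0.19 to 0.28 and from -0.08 to 0.19 against void.

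The transcription factors Tfeb and Tfe3 were called in none of the 7 comparisons. Tfeb read -1.91, -1.50 and -1.31 on void arrays, a spread wider than most of its differences. It differed from void by 0.15 with WT, 0.28 with D361E, -0.20 with the N-fragment and -0.10 with the C-fragment (each ± 0.18), and by -0.37 ± 0.16 with N+C (limma adjusted p = 0.114). D361E differed from WT by 0.13 and the N-fragment from the C-fragment by -0.11. With the slide as a fixed block, Tfeb was called higher with WT (0.39 ± 0.09, adjusted p = 0.0177) and lower with N+C (-0.34 ± 0.07, adjusted p = 0.00357) and with the N-fragment against the C-fragment (-0.30 ± 0.08, adjusted p = 0.0207). With the slide as a random block Tfeb was called with N+C (-0.36 ± 0.12, adjusted p = 0.0317), but neither with WT (adjusted p = 0.244) nor between the fragments (adjusted p = 0.299). Tfe3 differed from void by 0.23 with WT, 0.22 with D361E, 0.03 with the N-fragment, 0.19 with the C-fragment (each ± 0.10) and 0.06 ± 0.09 with N+C. It differed by -0.01 between D361E and WT and by -0.15 between the fragments. Without void replicate 1 or N+C replicate 5 Tfeb was also called lower with N+C (-0.54 and -0.46). With the fixed slide block Tfe3 was called with D361E (0.24 ± 0.07, adjusted p = 0.0279), and with the random one it was not (adjusted p = 0.0519). Mitf, the third family member and also a melanocyte marker, was higher with the N-fragment (0.44 ± 0.07, adjusted p = 0.000233).

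With the slide as a fixed block 17 members were called with the N-fragment (43.6%, against 35.7% of all genes), 17 with N+C (43.6%, against 33.4%), 15 with D361E (38.5%, against 19.4%) and 24 between the fragments (61.5%, against 24.9%). It gave 6 with WT (15.4%, against 10.4%), 3 with the C-fragment (7.69%, against 14.7%) and 1 between D361E and WT (2.56%, against 4.65%). As a random block the counts were 19, 19, 15 and 22 for the first 4 of these (48.7, 48.7, 38.5 and 56.4%), against 35.6, 31.3, 18.4 and 24.4% of all genes. For the others they were 6, 4 and 1 (15.4, 10.3 and 2.56%), against 11.4, 15.7 and 5.44%. Each called member kept its sign on every slide that holds both groups of its comparison. The calls rest on these same arrays, and where the groups do not overlap the sign within a slide was fixed. It is therefore no separate support for the calls. On the 1 slide with N-fragment and void arrays the differences were -0.81 for Gusb, -0.82 for Tpp1, -0.62 for Atp6v1a, 1.08 for Ctsh and 0.65 for Ctsl. The fixed block ended the calls of Ctsb with D361E, Cd63 with the N-fragment (adjusted p = 0.0729, limma) and Ctsf with N+C (adjusted p = 0.0594), beside that of Gusb with the C-fragment, and the random block kept these 4.

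Single arrays decided several of these calls. Without void replicate 2 the calls of Gusb were lost with WT (limma adjusted p = 0.0521), D361E (0.063) and the C-fragment (0.13), and without void replicate 3 as well (0.0576, 0.063 and 0.143). Gusb also lost its call without WT replicate 2 (0.0506), without D361E replicate 1 (0.0753) and without any 1 C-fragment replicate (0.0876 to 0.119). The D361E calls of Ctsb (0.0617 to 0.135) were lost without any 1 array of either group, and those of Atp6v1d (0.0825 to 0.189) and Lamp2 (0.0533 to 0.129) without any but void replicate 1. Neu1 with D361E was lost without void replicates 1 or 2 or D361E replicates 2 or 3 (0.0522 to 0.114).

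With the N-fragment, Atp6v0c (limma adjusted p = 0.0617 to 0.0917) and Ctsz (0.0805 to 0.127) were lost without void replicates 2 or 3 or N-fragment replicates 2 or 3. Cd63 was lost without any 1 void array or N-fragment replicate 3 (0.0627 to 0.164), and Ctsa without void replicates 1 or 2 or N-fragment replicates 1 or 2 (0.0806 to 0.155). With N+C, Ctsd was lost without void replicate 1 (0.15, adjusted p = 0.176), and Ctsf without void replicates 2 or 3 or N+C replicates 3 or 4 (0.0707 to 0.142). Naglu was lost without any 1 void array or N+C replicates 1, 2 or 3 (0.0641 to 0.103). Atp6v0a1 was lost without void replicates 1 or 2 or any N+C replicate but 2 (0.0611 to 0.198), and Ctsk without void replicates 1 or 2 or any N+C replicate but 3 (0.0515 to 0.203).

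Between the fragments, Ctsk (limma adjusted p = 0.0563) and Neu1 (0.0561) were lost without C-fragment replicate 3, Neu1 also without N-fragment replicate 3 (0.0591), and Atp6v0a1 without N-fragment replicate 2 (0.065). Ctsa, Gpnmb, Lamp2, Naglu and Atp6v0c were each lost without any of 3 to 5 single arrays (0.0583 to 0.174). The other called members kept their calls whichever single array was left out.

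Within the N+C group 30 of the 39 members (76.9%) had arrays 19 and 20 wholly above or wholly below arrays 16 to 18, against 60.8% of all genes. Cd68 was 0.69 above void on arrays 16 to 18 and 1.24 on arrays 19 and 20. Ctsl was -0.89 and -0.29, Gusb -0.46 and -0.16, and Ctsh 0.42 and 0.74, in the same order of sets. Ctsb changed sign, from -0.30 to 0.22, as did Glb1, from -0.26 to 0.16, and Npc1, from 0.20 to -0.24. Tpp1 (-0.71 and -0.53), Neu1 (-0.54 and -0.58) and Cd63 (-0.22 and -0.19) were lower in both sets. Without arrays 16 to 18 the group had 11 called members (3 higher, 8 lower), 28.2% against 28.3% of all genes. Without arrays 19 and 20 it had 19 (6 and 13), 48.7% against 33.7%. The labels give no difference between the sets.

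**Figure D4:**
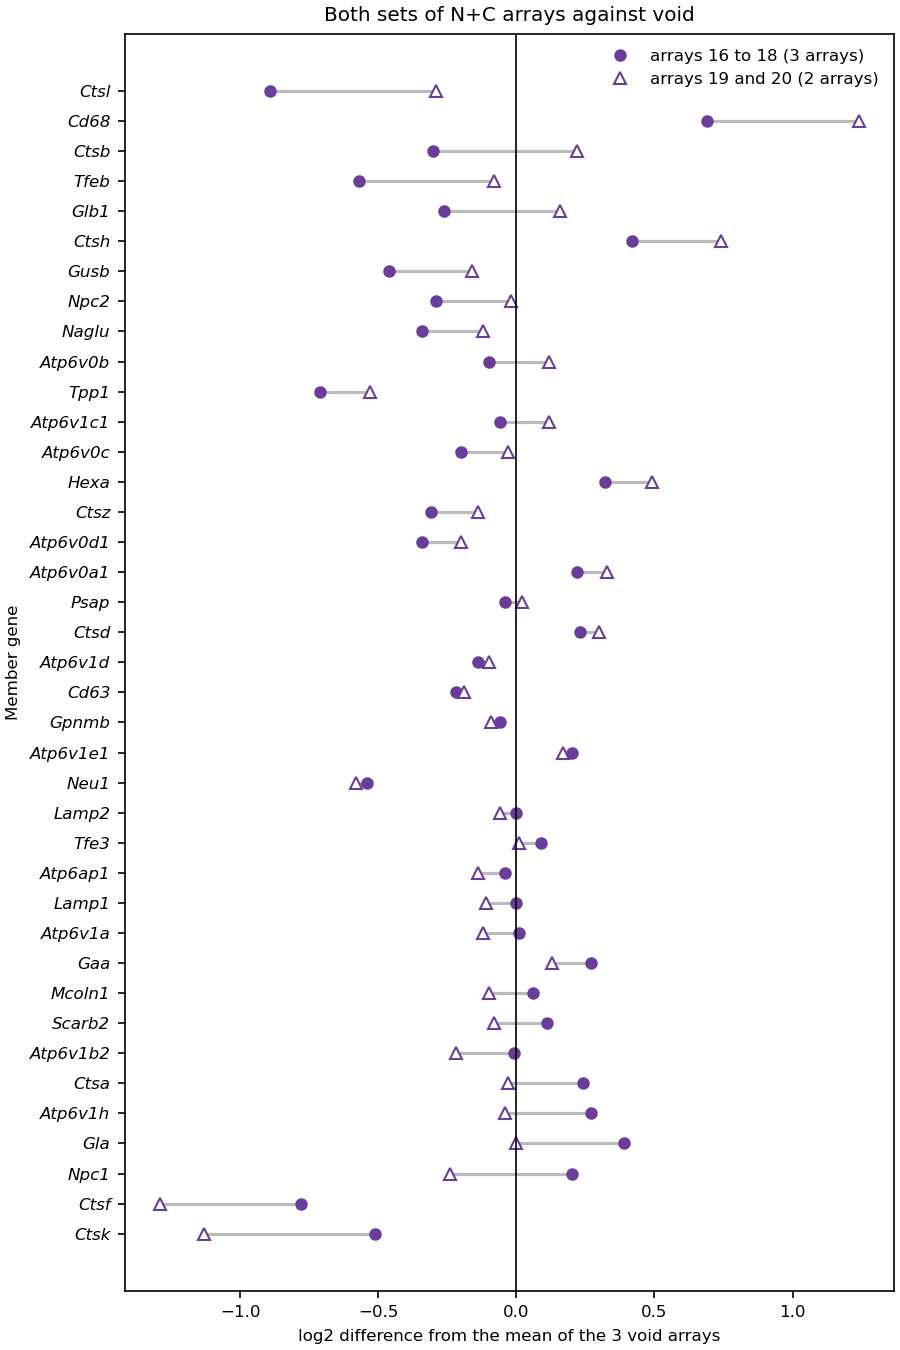
Log2 difference from the mean of the 3 void arrays (horizontal axis) for each of the 39 lysosomal genes (rows, ordered by the difference between the sets), for N+C arrays 16 to 18 (filled circles) and 19 and 20 (open triangles). Ctsl, Cd68 and Ctsb lie far apart in the 2 sets (-0.89 and -0.29, 0.69 and 1.24, -0.30 and 0.22), while Neu1 and Cd63 nearly coincide.

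Other genes of the same pathway were counted from 5 further lists. Of 34 measured hydrolases and cofactors outside the 39, 4 were higher and 6 lower with the N-fragment (29.4%, median 0.00), a share near the 31.1% of all genes. The largest rises were Siae, a sialic acid esterase (1.58 ± 0.08, limma adjusted p = 3.63e-10), and Lgmn, the asparaginyl endopeptidase that processes cathepsins (1.11 ± 0.06, adjusted p = 1.4e-09). The largest falls were Idua, the iduronidase of glycosaminoglycan breakdown (-0.97 ± 0.34, adjusted p = 0.0423), and Naaa, an acid amidase (-0.55 ± 0.20, adjusted p = 0.0458). Lgmn was higher in all 5 groups, by 0.71 with D361E, 0.66 with N+C, 0.59 with the C-fragment and 0.43 with WT beside the value above, as was Sgsh, a sulfamidase, by 0.40 to 0.58. With N+C 7 of the 34 were higher and 4 lower (32.4%, against 24.6% of all genes), led in the fall by Ctsc, an aminopeptidase that activates proteases (-0.84), and Naaa (-0.76), and in the rise by Lgmn and Lipa, the acid lipase (0.50). With D361E 4 were higher and 0 lower (11.8%, against 13.5% of all genes), Lgmn and Smpd1, the acid sphingomyelinase (0.53), first. With WT 2 were higher and 0 lower (5.88%, against 9.39% of all genes). With the C-fragment 2 were higher and 1 lower (8.82%, against 13.1% of all genes), the latter Aga, which cleaves glycans from asparagine (-0.28).

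Of 23 measured genes for other membrane and sorting proteins 2 were higher and 7 lower with the N-fragment (39.1%, against 31.1% of all genes). Slc17a5, the sialic acid exporter (-0.91), and Hgsnat, the acetyltransferase of heparan sulphate breakdown (-0.60), led the falls, and Laptm4a (0.48) and M6pr, a mannose 6-phosphate receptor (0.35), the rises. Igf2r, the larger mannose 6-phosphate receptor, was lower in all 5 groups, most with D361E (-1.22 ± 0.07, limma adjusted p = 1.54e-08) and WT (-1.03 ± 0.07, adjusted p = 2.52e-07). It was -0.63 with the C-fragment, -0.28 with the N-fragment and -0.19 with N+C, where the groups overlapped. M6pr was higher in the D361E (0.42), C-fragment (0.32) and N+C (0.45) groups too. Clcn7, the lysosomal chloride-proton exchanger, was higher with D361E (0.41) and WT (0.28). With N+C 1 of the 23 was higher and 3 lower (17.4%, against 24.6% of all genes), among them Ctns, the cystine exporter (-0.37), and Vps33a, a tethering factor (-0.31). Hgsnat was also lower with D361E (-0.67), where the list had 2 higher and 2 lower (17.4%, against 13.5% of all genes).

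Of 10 other measured pump genes 2 were higher and 1 lower with the N-fragment (30%, against 31.1% of all genes), namely Atp6v0a4 (0.58) and Tcirg1 (0.37), 2 alternative large V0 subunits, and Atp6v1g1, a stalk subunit (-0.23). Atp6v1g1 was also lower with N+C (-0.36). Atp6ap2, an accessory subunit, was higher with WT (0.55) and the C-fragment (0.48), and Atp6v0a4 was lower with WT (-0.51). With D361E 0 of the 10 were called (limma), against 13.5% of all genes.

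Of 16 measured genes of nutrient sensing at the lysosome 1 was higher and 6 lower with the N-fragment (43.8%, against 31.1% of all genes). Besides Mitf, the rise, these included Rragd, a Rag GTPase that recruits mTORC1 to the lysosome (-0.85 ± 0.11, limma adjusted p = 1.53e-05), and Flcn, the folliculin that regulates Rag GTPases (-0.50 ± 0.06, adjusted p = 6.68e-06). Rragb was also called there, but was not well above background on any array of either group. With N+C 1 was higher (Rptor, the mTORC1 scaffold, 0.32) and 5 lower (37.5%, against 24.6% of all genes), among them Flcn (-0.42) and Lamtor4, a subunit of the Ragulator complex (-0.39). Flcn (-0.22) and Fnip1, its partner (-0.20), were lower with D361E, Lamtor4 (-0.43) with the C-fragment, and Rragb was called higher with WT, where no void array had it above background.

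Of 20 autophagy genes 2 were higher and 7 lower with the N-fragment (45%, against 31.1% of all genes), and 1 higher and 8 lower with N+C (45%, against 24.6%). Ulk1, the kinase that starts autophagy, was lower in all 5 groups, by -0.48 with the N-fragment, -0.49 with N+C, -0.36 with WT, -0.33 with D361E and -0.40 with the C-fragment. Atg3, an enzyme of LC3 lipidation, was lower with the N-fragment (-0.50 ± 0.06, limma adjusted p = 2.02e-05), and Atg9a, a lipid scramblase, with N+C (-0.48). Sqstm1, the receptor p62, was higher with the N-fragment (0.43), N+C (0.50) and D361E (0.51), and Atg16l1 with the N-fragment (0.26, with overlapping groups). Uvrag was higher (0.35) and Wipi1 lower (-0.26) with D361E, where 3 were higher and 3 lower (30%, against 13.5% of all genes). Gabarapl2 was lower with WT (-0.23) and the C-fragment (-0.18), where 3 were lower and 0 higher in each (limma). That is 15% in each, against 9.39 and 13.1% of all genes.

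Of the 7 melanocyte markers 1 was higher and 1 lower with the N-fragment (28.6%, against 31.1% of all genes). With N+C and with WT 1 was lower in each (14.3%, against 24.6 and 9.39%). With D361E and the C-fragment 0 were called (limma), against 13.5 and 13.1% of all genes. Tyr, the tyrosinase of melanin synthesis, was lower with the N-fragment (-0.70 ± 0.07, limma adjusted p = 2.06e-06) and with N+C (-0.39 ± 0.06, adjusted p = 0.000375), and Dct with WT (-0.28). Mitf was the marker that was higher with the N-fragment (0.44). Among markers of other cell types Col1a1 (3.55) and Pdgfra (1.25) were higher with the N-fragment, Col1a2 was lower with N+C (-2.62), Pdgfra was called lower with the C-fragment, where it was above background on no array, Coro1a was higher with D361E (1.12) and Itgam was lower with the N-fragment (-0.94). Their part in the lysosomal differences was not tested.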

How the data were processed

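Cy3-labelled total RNA of 20 samples in 6 groups was measured on 1-colour Agilent arrays of 44397 features. The deposited intensity values are the background-subtracted processed signal that the authors obtained with Agilent Feature Extraction 10.7.3.1, per the submitters' processing notes. The deposited series table equals it on all 887940 values, which leaves the arrays unscaled against each other. Probes were named by accession through a RefSeq gene table (28663 of 39429, 72.7%).

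Log2 intensities were centred on the array's own 75th percentile (control probes left out), which differed up to 1.448-fold between arrays. Outlier spots (98 to 285 per array) were left out, and 0 spots were saturated. The filter kept 23433 probes, those above background on 3 or more arrays, and the brightest represented each gene (7 members had more than 1). In limma 3.58.1 (R 4.3.3) a linear model of the 6 groups was fitted over all 20 arrays (residual df 14), with Benjamini-Hochberg adjustment over 18739 genes in each of 7 comparisons. Comparisons against void share the void arrays. The fit was tested on simulated data. The number of arrays limits the precision.

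Members are the genes given by name. In each comparison the text gives values for up to 4 of the largest rises and 4 of the largest falls among called members whose groups do not overlap, with Rela, Tfeb and Tfe3 throughout and every other member by its range, count or value. Of each further list it names up to 2 called genes per direction. Members and lists were chosen with earlier results of these data known, so lists are described by counts and medians. The alternatives changed the scaling (quantile or none), the background (normexp, offset 50, with either scaling), the filter, the averaging of probes, the samples in the fit (the compared groups alone), the slide as a random or fixed block, a mean-variance trend, and the arrays left out. Normexp used the median foreground signal and was estimated without outlier spots.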

Additional observations from a re-analysis of the deposited data

How the results depend on the processing

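No paired analysis was possible because the sample titles carry only running numbers, with no replicate number shared between groups; arrays that share a slide were treated with the slide as a block. Over the alternatives run, values were counted for called members, with Tfeb and Tfe3 throughout. Of these, 1293 stayed called in the same direction or stayed not called, in either direction. Another 226 lost the call, 9 called values changed sign and 11, all of Tfeb or Tfe3, gained a call. Other members not called in the main fit were outside this count, so their gains do not appear in it. Among them Atp6v0a1 gained a call with WT in 7 alternatives and Atp6v1d with N+C in 8. Calls that held in every alternative in which the gene was tested were Cd68 and Gaa (WT, D361E), Atp6v1a, Ctsh, Ctsl, Glb1, Gusb and Tpp1 (N-fragment), Ctsk and Gaa (C-fragment), Ctsk (D361E against WT) and Cd68, Ctsh, Hexa, Neu1 and Tpp1 (N+C). Between the fragments these were Atp6v0d1, Atp6v1a, Ctsd, Ctsh, Gaa, Gusb, Mcoln1 and Tpp1.

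Without scaling between arrays the median of all genes moved to 0.37 (WT), 0.12 (D361E), 0.28 (N-fragment), 0.21 (C-fragment) and 0.19 (N+C). There the sign turned for Gpnmb with WT (0.05), Gusb with WT (0.00), Cd63 with N+C (0.00) and, with the N-fragment, for Atp6v0c (0.06), Atp6v0d1 (0.01), Cd63 (0.15), Ctsa (0.07), Gaa (0.10) and Mcoln1 (0.01). The N-fragment calls of Neu1, Naglu, Ctsd, Ctsz and Gpnmb were lost there without a change of sign. The WT count was 28 and the C-fragment count 11 (71.8 and 28.2% of the members, against 41 and 18% of all genes). The WT count was 8 with quantile normalization, 10 with normexp correction and 7 with both. Those are 20.5, 25.6 and 17.9% of the members, against 8.64, 19.3 and 7.91% of all genes. With no filter D361E had 6 calls (15.4%, against 6.03% of all genes). Fitting only the groups compared gave 4 calls for D361E, 11 for the N-fragment and 5 for N+C, with fewer arrays behind the spread. These are 10.3, 28.2 and 12.8% of the members, against 7.74, 25.1 and 10.8% of all genes. D361E against WT gave 0 calls among probes above background on all 20 arrays, a filter that removes Ctsk, and 2 with the mean of probes or a trend.

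Leaving out replicates gave 3 to 5 calls with WT, 5 to 8 with D361E, 13 to 16 with the N-fragment, 3 to 4 with the C-fragment, 12 to 17 with N+C, 1 for D361E against WT and 11 to 14 between the fragments. Leaving out the 4 arrays of the slide that holds N-fragment replicate 1, chosen after seeing the data, gave 6 calls with D361E. That is 15.4%, against 11.2% of all genes. Other causes were not tested. With 3 arrays in most groups, small differences are not resolved, and for Ctsk and Ctsf signal over background limits the values.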
